A study of Mus musculus with 74 samples.

Results

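The 9 genes described here are the cholesterol synthesis genes *Hmgcs1*, *Idi1*, *Fdps*, *Sqle*, *Lss* and *Cyp51*, the gene of their transcription factor, *Srebf2*, and the genes of the proteins that restrain it, *Insig1* and *Insig2*. They were picked by symbol from the RNA-seq table, where they are 9 of 14583 genes, and by the nearest gene that each ChIP-seq table names for its peaks. The tables hold between 20 and 84 peaks of these genes each, out of 27842 to 115042. The study compared livers of chow-fed C57BL/6 mice, labelled 8 to 12 weeks old, across 74 samples. *Gps2* LKO mice carried floxed *Gps2* and the albumin-Cre transgene, which acts in hepatocytes, and their WT controls were floxed littermates without Cre. In *Ncor* LKO and *Smrt* LKO mice the corepressor gene was removed in the liver only, and *Pparα* KO mice lacked the receptor in the whole body, each with WT controls. RNA was sequenced from 4 WT and 4 *Gps2* LKO livers. ChIP-seq for GPS2, NCOR, PPARα, RNA polymerase II, H3K27ac and H3K4me3 had between 1 and 3 samples per group, and each ChIP sample was pooled from several immunoprecipitations. The p-values measure the spread between these samples, and the labels do not say that each came from its own animal. The headers of the H3K27ac and H3K4me3 samples from *Gps2* LKO mice and their WT controls call them fed. No other header names a feeding state.

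Cholesterol synthesis in the liver is governed by SREBP2, the protein of *Srebf2*. SREBP2 sits in the endoplasmic reticulum membrane with its escort SCAP, and when sterols are plentiful the complex is held there by INSIG1 or INSIG2. When sterols run low, the escort carries SREBP2 to the Golgi, where 2 proteases, encoded by *Mbtps1* and *Mbtps2*, release a fragment that enters the nucleus and binds sterol response elements in the promoters of the enzyme genes, usually beside NF-Y and Sp1 sites. *Insig1* is itself a gene that SREBP2 switches on, while *Insig2* in liver is known to answer to other signals, among them insulin. GPS2 is a subunit of the NCOR and SMRT corepressor complexes, which hold histone deacetylase 3 on chromatin, and PPARα is a nuclear receptor for fatty acids that these complexes repress.

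The sequence just before the transcription start of each gene was read from RefSeq for the GRCm38.p6 build, and 7 of the 9 genes had an entry. *Sqle* and *Fdps* had none. The 3 promoters below carry the comparison that follows, because they differ in which sites of the SREBP2 system they hold. Each is printed for the 250 bases before the start, in the direction of transcription, and capitals mark the motifs found on either strand, which were TCACNCCAC for the sterol response element, CCAAT for NF-Y, GGGCGG for Sp1 and CACGTG for the E-box. *Hmgcs1* lies on the plus strand at chr13:119690101-119690350, *Insig1* on the plus strand at chr5:28071162-28071411, and *Insig2* on the minus strand at chr1:121332590-121332839.
Hmgcs1: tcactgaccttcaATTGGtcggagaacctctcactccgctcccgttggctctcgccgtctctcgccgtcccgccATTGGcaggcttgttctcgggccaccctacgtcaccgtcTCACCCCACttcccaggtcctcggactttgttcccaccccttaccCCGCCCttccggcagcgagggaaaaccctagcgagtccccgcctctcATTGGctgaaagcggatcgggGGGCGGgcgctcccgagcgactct
Insig1: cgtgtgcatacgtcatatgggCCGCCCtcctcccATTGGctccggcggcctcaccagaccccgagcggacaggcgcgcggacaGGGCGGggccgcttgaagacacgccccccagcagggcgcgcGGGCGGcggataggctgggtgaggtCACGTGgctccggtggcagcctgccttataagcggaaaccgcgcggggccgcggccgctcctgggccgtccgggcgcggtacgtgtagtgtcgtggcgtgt
Insig2: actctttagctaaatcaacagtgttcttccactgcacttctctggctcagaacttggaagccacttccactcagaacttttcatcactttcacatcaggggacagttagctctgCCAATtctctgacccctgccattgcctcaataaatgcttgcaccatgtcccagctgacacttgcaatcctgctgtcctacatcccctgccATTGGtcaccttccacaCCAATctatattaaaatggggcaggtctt
The sterol response element was found in 1 of the 7 promoters, that of *Hmgcs1*, at -137 to -129 from the start, and in 1.05% of 32851 promoters. An NF-Y site was found in all 7 genes, and so was an Sp1 site, where a match at any start of a gene counted. Of all promoters, each counted singly, 33.8% held an NF-Y site and 32.7% an Sp1 site. *Insig2* has 3 RefSeq starts, and the printed one, the start farthest upstream, holds NF-Y sites but no Sp1 site. Its other starts hold an Sp1 site but no NF-Y site. The E-box stood in *Insig1* alone of the 7 and in 6.02% of all promoters, and DR1, the element that PPARα binds with its partner RXR, was in none of the 7 and in 0.0335% of all. A match is a description of these letters, and shorter or altered forms of a site were not searched.

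In the *Gps2* LKO livers 6 of the 9 mRNAs rose, 2 fell and 1 did not pass the test. *Fdps*, *Lss*, *Insig1*, *Idi1*, *Hmgcs1* and *Insig2* were higher, *Srebf2* and *Sqle* were lower, and *Cyp51* had an adjusted p of 0.55 by edgeR. *Fdps* rose most, 1.56-fold, and *Srebf2* fell by 32.3%. Of the 12220 genes tested, 44.8% passed the same threshold of adjusted p 0.05, 23.4% higher and 21.4% lower, so the 8 calls among 9 genes stand in a background in which many genes changed. The median log2 change of the 9 was 0.34, beside 0.03 over all genes tested.

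*Hmgcs1* (chr13:119690351-119708260 in GRCm38) encodes the enzyme that makes HMG-CoA for the sterol pathway. Its read counts, scaled to a common library size, were 4478, 4459, 4803 and 4878 in the 4 WT livers and 5741, 5658, 6089.6 and 6100.2 in the 4 LKO livers. All LKO values lay above all WT values, and the log2 change was 0.34 ± 0.06 (SE, edgeR adjusted p = 0.000395). *Idi1* (chr13:8885606-8892396) encodes the isomerase that makes the second of the isoprenoid building blocks. Its scaled counts were 34.5, 47.2, 42.6 and 48.6 in WT and 54.6, 59.8, 58.1 and 51.0 in LKO. The groups did not overlap, but the gene passed the test only narrowly, with a log2 change of 0.38 ± 0.15 and an edgeR adjusted p of 0.0495, and it lost the call in 12 of 13 alternative analyses. *Idi1* also had by far the fewest reads of the 9 genes, and how reads shared with its paralog *Idi2* were counted is not given in the sources used here.

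*Fdps* (chr3:89093588-89101967) encodes farnesyl diphosphate synthase, at the branch between sterols and other isoprenoids. It had 1766, 1658, 1641 and 1696 scaled counts in WT and 2839, 2209, 2782 and 2712 in LKO. This was the widest gap among the 9 genes, a log2 change of 0.64 ± 0.08 (edgeR adjusted p = 2.75e-05), and LKO liver 2 stood lowest of its group. *Sqle* (chr15:59315092-59331193) encodes squalene epoxidase, a step that limits the rate of sterol synthesis. Its scaled counts were 2237, 2118, 2099.8 and 2166 in WT and 2023, 1871, 1879.9 and 1855 in LKO. *Sqle* was thus the only enzyme of the 6 that was lower in LKO, with a log2 change of -0.18 ± 0.06 (edgeR adjusted p = 0.0234).

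*Lss* (chr10:76531605-76557139) encodes lanosterol synthase, which closes the sterol rings. The WT livers had 1077, 1272, 1149 and 1209.8 scaled counts and the LKO livers 1521, 1655, 1625 and 1505. The lowest LKO value was above the highest WT value, and the log2 change was 0.42 ± 0.07 (edgeR adjusted p = 0.00033). *Cyp51* (chr5:4080674-4104697) encodes the demethylase that acts on lanosterol next. Its scaled counts were 4464, 4559, 4449 and 4608 in WT and 4816, 4438, 4616 and 4731 in LKO. The groups of *Cyp51* overlapped, the only ones of the 9 to do so, while 39.1% of all genes tested had groups without overlap. Its log2 difference was 0.04 ± 0.05.

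*Srebf2* (chr15:82147269-82204960) was lower in LKO, as *Sqle* was, while 4 of the 6 enzymes rose. It had 917, 933, 930.1 and 792 scaled counts in the WT livers and 499.8, 711, 689 and 508 in the LKO livers. The LKO values split into a lower and a higher pair, all below the lowest WT value, and the log2 change was -0.56 ± 0.11 (edgeR adjusted p = 0.00166). LKO libraries 1 and 4, the pair with low *Srebf2*, were also closer to each other over all genes (chi-square per gene 1.57) than any other pair of LKO libraries (9.81 to 31.3). Pairs of WT libraries ranged from 1.74 to 2.64. LKO libraries 1 and 4 also had more scaled counts of *Gps2*, 202 and 205, than LKO libraries 2 and 3, with 157 and 146.

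The INSIG genes both rose. *Insig1* (chr5:28071412-28078662) had 3959, 4027, 3933 and 3878 scaled counts in WT and 4862, 5405, 5855 and 4948 in LKO. Every LKO liver was above every WT liver, with a log2 change of 0.42 ± 0.06 (edgeR adjusted p = 0.00023). *Insig2* (chr1:121304353-121332589) had 975, 986, 937 and 1002 in WT and 1188, 1075, 1106 and 1153 in LKO. The change was smaller, 0.21 ± 0.06 on the log2 scale (edgeR adjusted p = 0.0139), again without overlap between the groups.

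**Figure D1:**
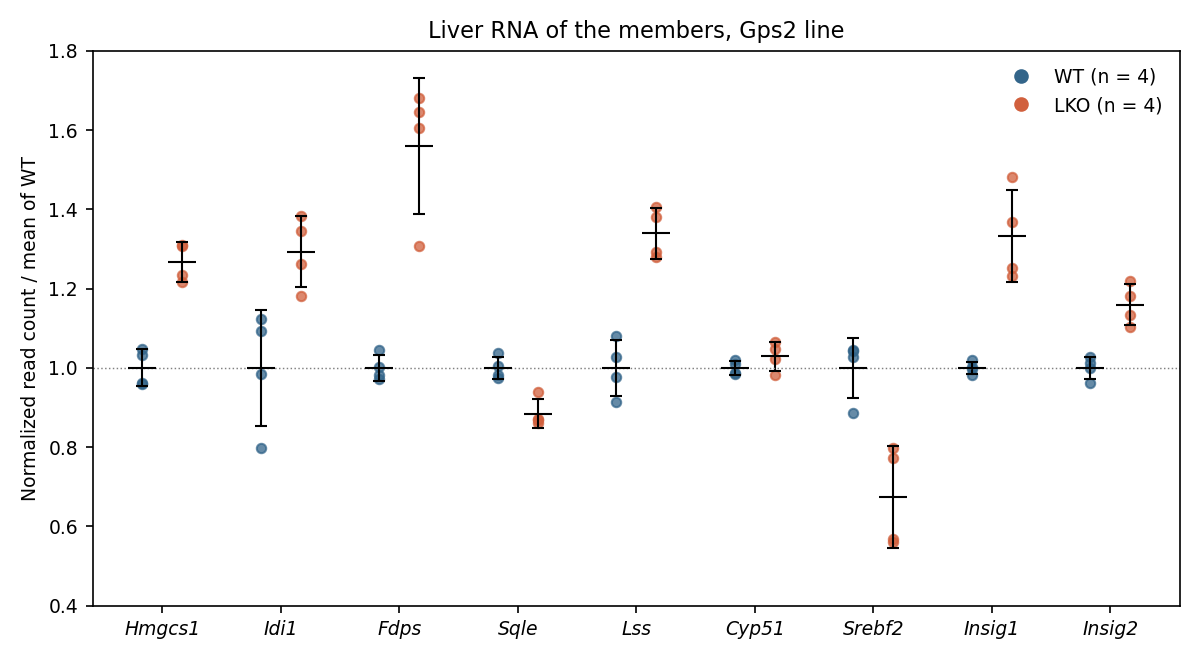
Scaled RNA-seq read counts of the 9 genes in 4 WT and 4 *Gps2* LKO livers, each divided by the WT mean of its gene, with points for livers and bars for mean ± SD. *Srebf2* and *Sqle* sit below the WT level in LKO, *Cyp51* overlaps it, and the other 6 genes sit above it, *Fdps* farthest.

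Levels between genes can be compared only per exon length, as RPKM, reads scaled to the exon length and the library size. In WT livers *Insig1* was highest at 93.8 ± 1.47 RPKM (SD, n = 4), followed by *Hmgcs1* at 81.9 ± 3.82, *Fdps* at 72.8 ± 2.39 and *Cyp51* at 65.3 ± 1.10. *Sqle* at 49.3 ± 1.41 and *Insig2* at 20.8 ± 0.587 came next. *Srebf2* at 12.3 ± 0.935 RPKM and *Lss* at 11.7 ± 0.832 did not differ beyond their spread, and *Idi1* was last at 0.949 ± 0.140. In LKO livers *Insig1* at 125 ± 10.9 and *Fdps* at 114 ± 12.4 RPKM did not differ beyond their spread, and neither did *Fdps* and *Hmgcs1*, at 104 ± 4.06. *Lss* at 15.7 ± 0.742 stood clear of *Srebf2* at 8.29 ± 1.57 RPKM there. The mean over the 8 libraries placed *Insig1* at the 95.6th percentile of all genes tested and *Idi1* at the 18.5th.

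The genes whose log2 levels followed the mean pattern of the 9 most closely over the 8 libraries were *Nfe2l3* (Pearson r = 0.992), *Slc30a3* (0.991), *Ptgr1* (0.99), *Rbmx* (0.988) and *Gdf15* (0.987). All 5 were higher in LKO, and since the libraries form 2 groups, the correlations mostly restate that difference. Between *Srebf2* and *Insig2* r was -0.96, and between *Fdps* and *Hmgcs1* 0.93, over the same 8 libraries.

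The remaining enzymes of the sterol pathway gave a mixed picture. Of 16 tested, 8 rose, 3 fell and 5 did not pass the test, with a median log2 change of 0.2. Among those that rose were *Pmvk*, phosphomevalonate kinase, at 0.91 ± 0.11 (edgeR adjusted p = 3.39e-05), and *Sc5d*, sterol C5-desaturase, at 0.57 ± 0.06 (9.38e-06). The genes for SREBP processing went the other way, with 5 of 8 lower, 1 higher and a median of -0.23. *Syvn1*, an endoplasmic reticulum ubiquitin ligase, fell by 0.78 ± 0.06 on the log2 scale (edgeR adjusted p = 5.76e-07). The protease genes *Mbtps1* and *Mbtps2* had log2 changes of -0.38 ± 0.08 (0.00157) and -0.36 ± 0.11 (0.0182), and they were the next largest calls of this list. The *Mbtps2* call was lost without WT sample 2, LKO sample 1 or LKO sample 3 (edgeR adjusted p from 0.0519 to 0.0561), and its change was -0.23 with the trend over exon length removed. Sterol uptake and transport genes moved in both directions, 4 higher and 2 lower of 8, led by *Npc2* at 0.54 ± 0.09 (0.000282), *Npc1* at -0.40 ± 0.08 (0.00188) and *Tmem97* at 0.33 ± 0.09 (0.00681). With the trend over exon length removed *Tmem97* was at 0.10 and not called (edgeR adjusted p = 0.181), and *Npc1* was at -0.25 and still called. *Npc1* and *Npc2* encode partners in the export of cholesterol from lysosomes.

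Genes of fatty acid synthesis under SREBP1, the sister factor, rose more uniformly. Of 10 tested, 8 were higher and none lower, with a median log2 change of 0.71, led by *Pnpla3* at 2.73 ± 0.10 (edgeR adjusted p = 9.9e-11), *Me1*, malic enzyme, at 0.94 ± 0.06 (3.08e-08) and *Thrsp* at 0.93 ± 0.09 (2.79e-06). Sterol genes cycle with the day, so clock genes were read beside them. Of 14 clock genes tested 3 rose and 5 fell, with log2 changes of -1.84 ± 0.18 for *Bhlhe41* (edgeR adjusted p = 4.68e-06), -1.15 ± 0.12 for *Clock* (4.88e-06) and -0.87 ± 0.07 for *Hlf* (9.02e-07). The part of the sampling time in the member changes was not tested.

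Markers of other liver cells moved with the genotype too. All 6 stellate cell markers, 5 of 6 macrophage markers, 3 of 5 cholangiocyte markers, 2 of 5 endothelial markers and the 1 leukocyte marker tested, of 6 listed, were higher in LKO, and none of these was lower. Hepatocyte markers were 3 higher and 1 lower of 6. The summed stellate markers ranged from 2809 to 2942 scaled counts in WT and from 5275 to 5431 in LKO, the summed macrophage markers from 1765 to 1804 and from 2288 to 2754, and the summed hepatocyte markers from 1682340 to 1743730 and from 2280420 to 2709850. No listed marker was at 0 in all libraries. Their part in the result was not tested, and in whole liver more cells of a type and more RNA per cell cannot be told apart.

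Library totals were 13.2 M to 20.1 M counted reads for RNA and 7.90 M to 46.1 M tags for ChIP. *Gps2* itself was lower in LKO livers, with 202, 157, 146 and 205 scaled counts against 261, 251, 266 and 239.9 in WT (log2 change -0.53 ± 0.11, edgeR adjusted p = 0.0021), which goes with the labels. Across genes the log2 change fell with exon length (Spearman -0.40). With that trend removed *Cyp51* passed at 0.14 (edgeR adjusted p = 0.0403), *Lss* moved from 0.42 to 0.64 and *Fdps* from 0.64 to 0.42.

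In the *Gps2* line, GPS2 was bound near 8 of the 9 genes in WT liver, and the signal was nearly gone in LKO liver. This comparison has 1 library per group and thus no replicate check. Values are normalized tags, which are tags per 10000000 in a library, with exact Poisson 95% intervals that cover counting error only. All 44 member peaks were at least 2-fold lower in LKO, as were 99.6% of all 49018 peaks, of which 99.7% differed 2-fold in either direction. Over all peaks the median log2 ratio was -3.58, with the peaks of 0 LKO tags left out. The member median of -5.24 includes such peaks, so these medians cannot be compared. The strongest member peak was 3386 bases upstream of *Insig2* (chr1:123232484-123232620 in mm9, the build of all ChIP tables), with 51.6 tags (40.9 to 64.2) in WT and 2.70 (0.737 to 6.92) in LKO. The next was 16463 bases upstream of *Insig2*, with 40.01 tags (30.7 to 51.3) in WT and 0 in LKO, where a count of 0 allows up to 2.49. *Insig1* had 14 GPS2 peaks and *Insig2* 9, and the 6 enzymes together with *Srebf2* had 21, at no more than 11.6 tags each in WT. *Hmgcs1* had no peak here or in any of the other ChIP tables, so nothing below bears on it.

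Across the 8 tables of GPS2, NCOR and PPARα binding, the overlapping member peaks merged into 107 regions, 40 of *Insig1*, 17 of *Insig2*, 16 of *Srebf2*, 14 of *Cyp51*, 9 of *Fdps*, 6 of *Sqle*, 4 of *Lss* and 1 of *Idi1*. Of these regions 16, or 15%, had a peak in every one of the 8 tables, which compares with 12.6% of 148723 regions genome-wide. *Insig1* had 7 of these shared regions, *Insig2* 6, *Cyp51* 2 and *Lss* 1. Peaks were assigned to the nearest start in the tables, so a PPARα peak 73311 bases from *Insig1* or 83903 bases from *Insig2* belongs to these genes by distance alone.

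RNA polymerase II in the *Gps2* line, also with 1 library per group, stayed within 2-fold at these genes. None of 20 member peaks changed 2-fold, while 13.7% of all peaks did, with 7.72% of 31434 peaks at least 2-fold higher and 5.94% at least 2-fold lower. At the *Insig2* promoter peak (chr1:123224265-123224572) there were 167 normalized tags in each library. At the *Insig1* promoter the values were 279.7 (250.1 to 312) in WT and 281 (252 to 313) in LKO. At the *Fdps* promoter, by contrast, LKO had 79.9 (64.6 to 97.6) against 117 (97.9 to 138) in WT, a ratio of 0.685 that runs against the rise of its mRNA. The other member promoters, of *Idi1*, *Srebf2*, *Sqle*, *Lss* and *Cyp51*, had ratios between 0.859 and 1.15 with overlapping intervals. The lowest ratio was 0.522 at a peak 8569 bases past the *Insig1* start. It had 106 tags (88.5 to 127) in WT and 55.5 (42.9 to 70.6) in LKO, intervals that did not overlap.

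PPARα tags were higher at many peaks in *Gps2* LKO livers, among them 8 of the 16 peaks of *Insig2*. Of 77 member peaks 17 were called, all higher, where 21.7% of all 102519 peaks were called and 21.5% were higher, so the count of member peaks was near the background. The called peaks were 8 of 16 at *Insig2*, 5 of 26 at *Insig1*, 2 of 7 at *Srebf2*, 1 of 8 at *Fdps* and 1 of 4 at *Lss*. The median log2 change was 0.64 over member peaks and 0.62 over all peaks. The 3 WT libraries differed from each other by less than the sampling noise (chi-square per peak 0.88 to 0.89) and were counted as 1 sample against 3 LKO samples. The spread in this test therefore comes from the LKO samples alone, and WT livers are assumed to vary like them. With the WT libraries taken as separate samples 36.4% of the member peaks and 36.9% of all peaks were called.

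The peak at the *Insig2* promoter (chr1:123229193-123229440), 150 bases upstream of a start, had 60.7, 54.1 and 46.2 normalized tags in the WT libraries and 131, 129 and 119.6 in the LKO libraries. Every LKO value lay above the 3 WT values, and the log2 change was 1.24 ± 0.26 (edgeR adjusted p = 0.00017, with WT as 1 sample). The peak 1642 bases upstream of *Insig2* had 25.3, 27.5 and 28.2 tags in WT and 59.8, 72.0 and 59.8 in LKO, a log2 change of 1.23 ± 0.27 (edgeR adjusted p = 0.000443). The peak 18238 bases upstream had 35.4, 38.0 and 33.8 against 51.7, 78.6 and 86.8 (1.04 ± 0.26, edgeR adjusted p = 0.00168), and was not called by DESeq2 (adjusted p = 0.0699). None of these groups overlapped, as for 47.6% of all peaks. All 16 tested *Insig2* peaks had log2 differences above 0, from 0.47 to 1.64 with a median of 0.88 (called or not), and *Insig1* peaks ranged from -0.47 to 1.10.

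At *Srebf2*, an intronic PPARα peak 3158 bases past the start (chr15:81980742-81980972) had 6.33, 13.3 and 4.51 normalized tags in WT and 23.0, 21.8 and 23.5 in LKO. It rose by 1.43 ± 0.39 on the log2 scale (edgeR adjusted p = 0.00433) while the mRNA of the gene fell, and it was not called without LKO library 3 (edgeR adjusted p = 0.0529). At the promoters of the other members the log2 differences were 0.11 for *Insig1*, 0.26 for *Cyp51*, 0.29 for *Sqle*, 0.64 for *Idi1*, 0.69 for *Lss*, 0.71 for *Srebf2* and 1.05 for *Fdps*, none of them called (edgeR adjusted p from 0.147 to 0.824), where 7.83% of all peaks within 1000 bases of a start were. The LKO libraries had 28.9% to 32.1% of their tags in peaks and the WT libraries 19.2% to 21.9%. When the libraries were scaled to each other by TMM, none of the 77 member peaks was called, beside 0.973% of all peaks. The *Insig2* promoter peak was then at 0.63 (edgeR adjusted p = 0.146). Under that scaling 3 of the 8 member promoters changed sign. These values are therefore relative to the total tags, and a library-wide gain of signal cannot be told apart from a gain at single peaks.

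*Pparα* KO livers lack the target of the PPARα antibody, so a fall of its signal there is a check of the antibody and not a result about these genes. Of 42 member peaks 14, or 33.3%, were lower and none higher. Over all 40241 peaks tested 27.6% were called, all but 7 lower. The called peaks were 7 of 12 at *Insig1*, 4 of 11 at *Insig2* and 1 each at *Cyp51*, *Fdps* and *Sqle*. With 2 samples per group, the median log2 difference was -1.80 over member peaks and -1.68 over all.

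The peak with the smallest p was 39518 bases upstream of *Insig1* (chr5:28358240-28358629), with 34.7 and 37.5 normalized tags in WT and 3.43 and 2.93 in KO (log2 change -3.46 ± 0.35, edgeR adjusted p = 9.99e-06). The peak 3396 bases upstream of *Insig2* (chr1:123232473-123232652) had 21.2 and 24.5 in WT and 1.37 and 2.93 in KO (-3.37 ± 0.46, edgeR adjusted p = 7.61e-05). In both, every KO library was below every WT library, and 69.9% of all peaks had groups without overlap. The peak 15886 bases upstream of *Insig1* fell from 14.2 and 20.6 tags to 2.75 and 2.20 (-2.76 ± 0.49, edgeR adjusted p = 0.000623). At the *Insig2* promoter, where PPARα rose in the *Gps2* line, this thinner experiment had 9.91 and 5.35 tags in WT and 2.75 and 1.47 in KO, a log2 difference of -1.81 ± 0.73 that was not called (edgeR adjusted p = 0.076). None of the 14 calls held when either WT sample was left out, as no peak in the whole table was then called.

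**Figure D2:**
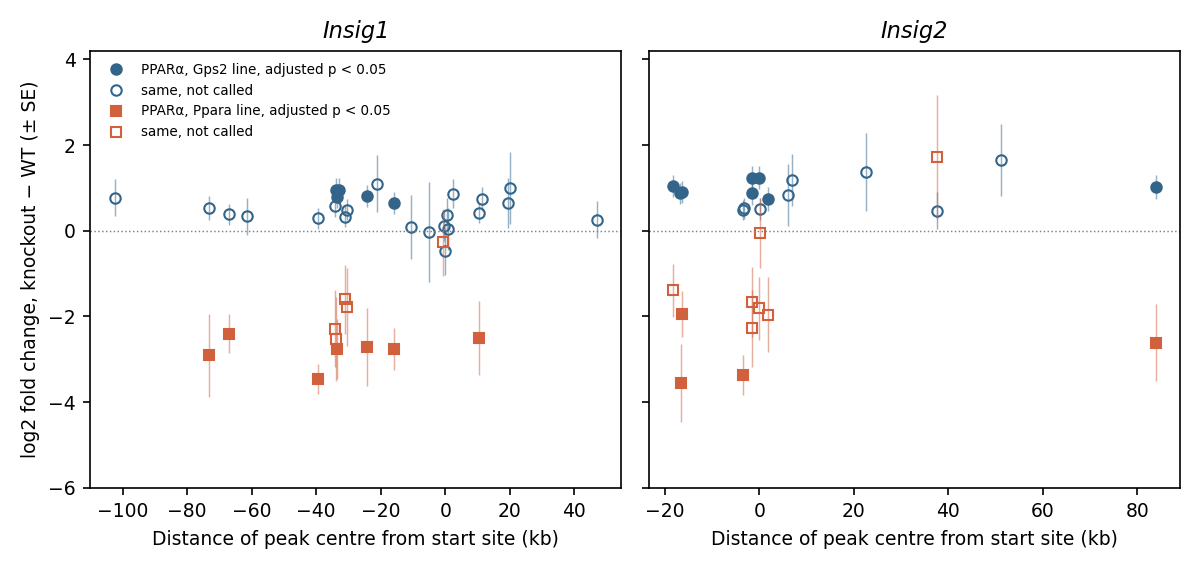
PPARα log2 differences (± SE) at the *Insig1* and *Insig2* peaks in *Gps2* LKO and *Pparα* KO livers, each against its own WT, by distance from the start in kilobases. Most *Insig2* points lie above 0 in the *Gps2* line and below 0 in the *Pparα* line. The *Insig2* peak 3396 bases upstream was at -3.37 in *Pparα* KO.

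The DR1 letters were also searched in 201-base windows at the centres of the PPARα peaks of the *Pparα* line. No member peak of 42 held an exact DR1, against 0.269% of 40214 windows. With at most 1 mismatch, a search added after the data were seen, 1 of 42 did (2.38%, against 3.14% of all), and with at most 2 mismatches 3 of 42 (7.14%, against 14.0%). The window with 1 mismatch is 31194 bases upstream of *Insig1*, on the plus strand at chr5:28366658-28366858 in mm9, and it is printed because it is the closest match among the members, with the DR1-like letters in capitals.
Insig1 upstream peak: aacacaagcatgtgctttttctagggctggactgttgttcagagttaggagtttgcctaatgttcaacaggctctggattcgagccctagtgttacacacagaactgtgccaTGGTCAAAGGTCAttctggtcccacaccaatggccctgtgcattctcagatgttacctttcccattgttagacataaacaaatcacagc
At this peak the WT libraries of the *Pparα* line had 4.95 and 8.41 normalized tags and the KO libraries 0.687 and 3.66, a log2 difference of -1.60 ± 0.81 that was not called (edgeR adjusted p = 0.148). In the *Gps2* line the peak at the same place had 57.0, 80.7 and 51.9 tags in WT and 82.7, 95.7 and 68.6 in LKO, with overlapping groups and a log2 difference of 0.33 ± 0.24 (edgeR adjusted p = 0.294). The 2 member peaks with the smallest p, 39518 bases from *Insig1* and 3396 bases from *Insig2*, differed from DR1 by 4 and 3 letters.

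Loss of NCOR gave no called change of PPARα binding at the members. Of 73 member peaks none passed, and 0.196% of 86168 peaks did. At an unadjusted p under 0.05 there were 2, or 2.74%, beside 5.23% of all peaks. At the *Insig2* promoter PPARα had 37.02, 45.9 and 30.4 normalized tags in WT and 61.0, 51.7 and 99.1 in *Ncor* LKO. The groups did not overlap, as for 8% of all peaks, but the log2 difference of 0.90 ± 0.47 was not called (edgeR adjusted p = 0.985). DESeq2 also called 0 member peaks, beside 0.0325% of all peaks. TMM scaling called 4, or 5.48%, beside 1.74% of all peaks.

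No change of NCOR binding was called at the members in *Gps2* LKO livers. None of 64 member peaks was called, where 0.0173% of 80813 peaks were, and DESeq2 called 0. At an unadjusted p under 0.05 there were 3, or 4.69%, beside 2.79% of all peaks. The NCOR peak 3442 bases upstream of *Insig2* had 138, 121 and 81.7 normalized tags in WT and 124, 129.5 and 66.2 in LKO. These groups overlapped, with a log2 difference of -0.09 ± 0.40. An SE of this size allows a change of either sign. The peak was picked for its place at the strongest GPS2 peak, after its values had been seen.

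In *Pparα* KO livers 1 of 84 NCOR member peaks was lower, where 2.64% of 115042 peaks were called and 2.51% were lower. It lies 10566 bases past the *Insig1* start (chr5:28408441-28408595) and had 17.9, 15.5 and 9.27 normalized tags in WT and 4.90, 6.73 and 3.56 in KO (log2 change -1.46 ± 0.44, edgeR adjusted p = 0.0363). The groups did not overlap there, nor at 20.8% of all peaks, but the call was lost by TMM scaling, by DESeq2, with a replicate block (edgeR adjusted p = 0.0585), and without WT library 1, WT library 2, KO library 1 or KO library 3 (adjusted p from 0.0426 to 0.282 over 10 alternatives). TMM scaling instead called 1 other member peak, a higher one, where it called 1.81% of all peaks. The NCOR promoter peak of *Insig2* lay within chr1:123224262-123224798, at another start than the PPARα promoter peak. It had 34.9, 31.8 and 37.1 tags in WT and 29.4, 45.8 and 32.7 in KO, which overlapped. PPARα at the matching *Insig1* position, 10549 bases past the start, was also among the peaks that fell in *Pparα* KO, from 10.6 and 6.12 tags to 2.75 and 0.

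GPS2 binding at the members had negative median differences in both of the other lines, and no member peak was called. In *Ncor* LKO livers none of 49 member peaks passed, where 0.0338% of 56278 peaks did. At an unadjusted p under 0.05 there were 17, or 34.7%, near the 34.3% of all peaks, and DESeq2 called 7, or 14.3%, near its 14.1% of all. The median log2 difference was -1.15 for member peaks and -1.12 for all peaks, and under TMM scaling 5 of the 7 promoter peaks of the members had the opposite sign. Summed over the 11 *Insig2* peaks, the WT libraries had 294, 216 and 103 normalized tags and the LKO libraries 67.0, 92.1 and 47.3. WT library 3 sat near the LKO values. It had 3.07% of its tags in peaks, against 7.82% and 8.23% in the other WT libraries and 2.45% to 3.15% in LKO. Without it 29 member peaks were called, all lower, which is 59.2% of them and near the 59.5% of all peaks called then.

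In *Pparα* KO livers none of 23 GPS2 member peaks was called, where 0.273% of 27842 peaks were, and DESeq2 called 0. At an unadjusted p under 0.05 there were 9, or 39.1%, beside 23% of all peaks. The median log2 difference was -1 for the members and -0.93 for all. At the GPS2 peak 3408 bases upstream of *Insig2*, which was picked for its place at the strongest GPS2 peak after its values had been seen, WT livers had 26.4, 20.2 and 53.1 normalized tags and KO livers 21.8, 10.6 and 5.05. The groups overlapped, with a log2 difference of -1.40 ± 0.55 (edgeR adjusted p = 0.162).

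**Figure D3:**
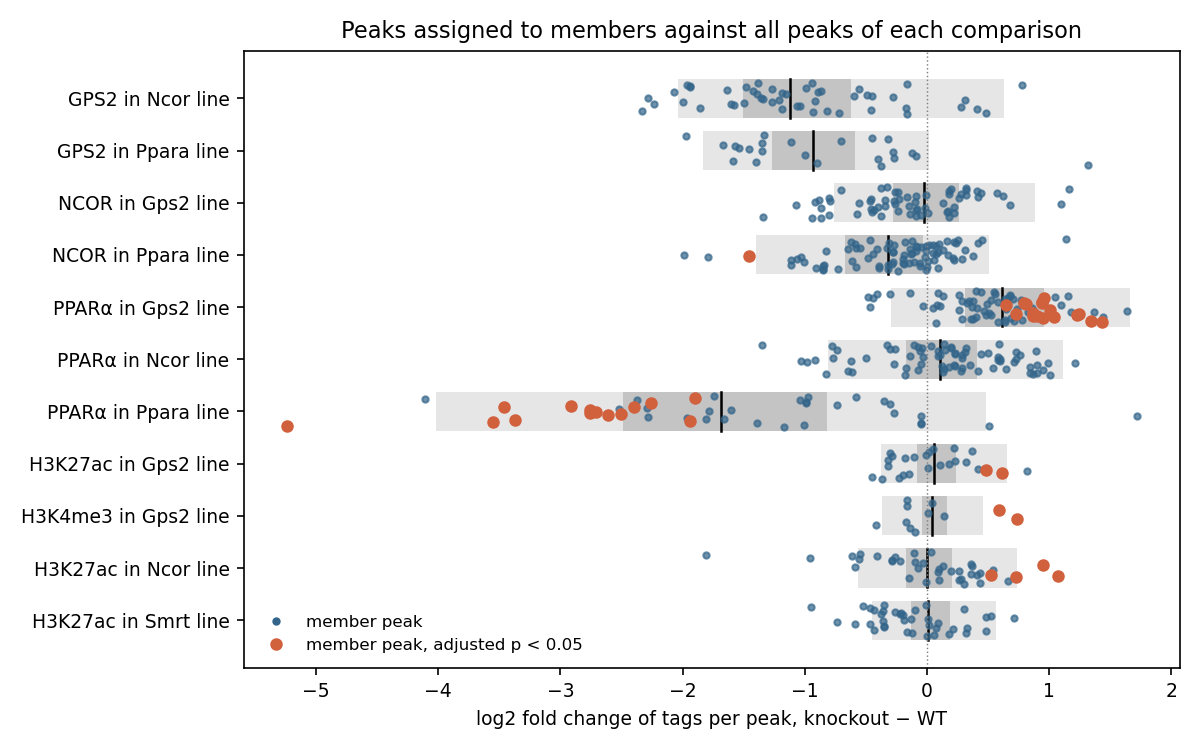
Log2 differences of the member peaks (points, orange where the adjusted p is below 0.05) in the 11 replicated ChIP comparisons, KO against WT. Grey bars span the 5th to 95th and 25th to 75th percentiles of all peaks tested, with their median. Called points rise in the *Gps2* line for PPARα and histone marks and fall for PPARα in the *Pparα* line, and the member points mostly lie within the spread of all peaks.

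In *Gps2* LKO livers the called histone mark changes at the members were rises at *Insig2* and *Insig1*. H3K4me3, a mark of active starts, was called at 2 of 11 member peaks in *Gps2* LKO livers, both higher, against 0.916% of 22814 peaks and 0.798% higher. The broad peak over the *Insig2* promoter (chr1:123215731-123233758) had 899 and 839 normalized tags in the 2 WT libraries and 1469.6 and 1439.7 in the 2 LKO libraries. The groups did not overlap, as for 36.2% of all peaks, with a log2 change of 0.74 ± 0.06 (edgeR adjusted p = 6.14e-05), and the call held in all 9 alternatives. The other called peak, 27388 bases upstream of *Insig1* (chr5:28356627-28384501), had 735 and 644 in WT and 1123 and 956 in LKO (0.59 ± 0.09, edgeR adjusted p = 0.00409), and was not called without WT library 2 (edgeR adjusted p = 0.0677) or when all peaks of the shared table were tested (0.108). The H3K4me3 peaks over the *Cyp51*, *Fdps* and *Lss* promoters had log2 differences of -0.16, 0.04 and -0.17 and were not called. The peaks nearest *Sqle*, *Srebf2*, *Idi1* and *Insig1* had their centres more than 1000 bases from the start.

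H3K27ac, which histone deacetylase 3 removes, was called at 2 of 25 member peaks in *Gps2* LKO livers, both higher and both at *Insig2*, against 1.42% of 47108 peaks and 1.21% higher. Over the *Insig2* promoter there were 1083 and 1211 normalized tags in WT and 1591 and 1614 in LKO (log2 change 0.48 ± 0.09, edgeR adjusted p = 0.0449). The peak 17028 bases upstream (chr1:123243763-123248626) had 177 and 197 in WT and 283 and 289 in LKO (0.61 ± 0.10, edgeR adjusted p = 0.0302). Neither pair of groups overlapped, which held for 44.8% of all peaks, and neither call held without either of the WT libraries. Leaving out LKO library 1 left 1 LKO library, and thus no spread within that group. The median log2 difference was then -0.30 over member peaks and 0.05 over all peaks. In that fit *Insig2* peaks were at 0.49, 0.62 and 0.93, and peaks at *Fdps*, *Cyp51*, *Idi1* and *Sqle* were between -0.79 and -0.48. At *Fdps*, whose mRNA rose most, the promoter peak had 508 and 431 in WT and 551 and 318 in LKO, which overlapped. At *Sqle* the peak that spans the start had 420 and 341 in WT against 339.7 and 219.7 in LKO, which barely separated and was not called (edgeR adjusted p = 0.334).

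H3K27ac was also called higher near *Insig2* in *Ncor* LKO livers. Of 39 member peaks 4 were called, all higher, where 3.12% of 68817 peaks were called and 2.32% were higher, and 3 of the 4 lie at *Insig2*. The peak 17167 bases upstream of *Insig2* had 251, 201 and 196 normalized tags in WT and 374, 337 and 364 in *Ncor* LKO (log2 change 0.73 ± 0.12, edgeR adjusted p = 0.0119). The peak 11905 bases upstream had 19.6, 14.4 and 15.7 against 33.9, 31.0 and 39.0 (1.07 ± 0.18, 0.0149). Over the *Insig2* promoter region (chr1:123221543-123234284), a call named only after its values had been seen, WT had 1307, 1170.4 and 1112 and *Ncor* LKO 1893, 1571 and 1679.8 (0.52 ± 0.10, 0.0265). The remaining call, 66766 bases upstream of *Insig1*, rose from 107, 93.0 and 102 tags to 228, 153 and 199.5 (0.95 ± 0.15, edgeR adjusted p = 0.0118). In all 4 the groups did not overlap, nor did they at 19.7% of all peaks. Without WT library 2 or WT library 3 none of the 4 was called, where 0.577% and 0.881% of all peaks were. Without LKO library 3 there were 2, or 5.13%, beside 1.78% of all peaks. Without WT library 3 the 1 member peak called was a lower one, 15214 bases past the *Cyp51* start (-1.19, edgeR adjusted p = 0.0259). DESeq2 called 6 member peaks, or 15.4%, beside 4.93% of all peaks, with 4 higher and 2 lower. The lower ones were this *Cyp51* peak (-0.96, DESeq2 adjusted p = 0.00824) and a peak 10515 bases upstream of *Insig1* (-0.59, DESeq2 adjusted p = 0.0413).

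In *Smrt* LKO livers no peak was called, of 39 at the members or of 68800 in all (0%), and DESeq2 called 68 in all. At an unadjusted p under 0.05 there were 9 member peaks, or 23.1%, beside 5.93% of all peaks. The *Insig2* promoter region there had 1818, 1832 and 1302 normalized tags in WT and 1573, 1812 and 1816 in *Smrt* LKO. The groups overlapped, with a log2 difference of 0.07 ± 0.13. Tested directly, in a fit added after the data were seen, the *Smrt* effect on this region minus the *Ncor* effect was -0.45 ± 0.17 (edgeR adjusted p = 0.337), and none of 39 member peaks passed this test, against 0.426% of 68818 peaks. A difference between the *Ncor* and *Smrt* lines at the members was thus not shown. The *Smrt* line libraries had no tags in peaks of the Y chromosome and 918 to 1048 in the *Xist* peak, as in females. The *Ncor* line libraries had 1368 to 1518 and 12 to 22, as in males, with WT and LKO alike within each line. The methods of the paper describe the mice as male, which the *Smrt* line libraries go against. The sex of the mice thus cannot be told apart from the line in that comparison.

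**Figure D4:**
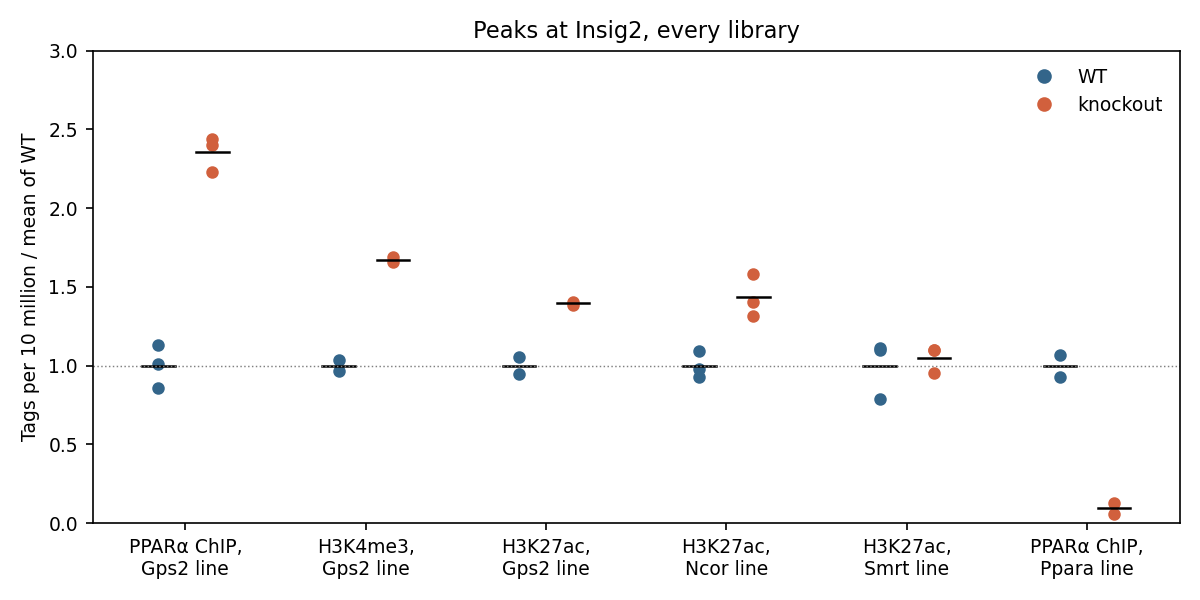
Normalized tags at *Insig2* peaks in each ChIP library, divided by the mean of the WT libraries of that experiment, for PPARα, H3K4me3 and H3K27ac in the *Gps2* line, H3K27ac in the *Ncor* and *Smrt* lines and PPARα in the *Pparα* line. The PPARα peak of the *Gps2* line is the promoter peak, 150 bases upstream, and that of the *Pparα* line is a different peak, 3396 bases upstream. LKO points lie above all WT points for the marks and PPARα in the *Gps2* line and for H3K27ac in the *Ncor* line, and overlap WT in the *Smrt* line. KO points lie below WT for PPARα in the *Pparα* line.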

How the data were processed

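Livers of 8 RNA-seq and 64 ChIP-seq samples were analysed, grouped by their labels, and the 2 input samples were not used. The RNA-seq counts per gene were deposited by the authors without normalization. The paper names HISAT2, HOMER and mm9, the submitters' notes also name featureCounts, GRCm38 and mm10, and the exon coordinates in the table are those of GRCm38. The table also holds the authors' own fold changes, p-values, false discovery rates and calls, which were not used. The ChIP-seq tables hold counts of raw tags per peak, deposited as HOMER wrote them from reads aligned to mm9 with Bowtie2, and their headers give each library's total tags. The deposited peak lists hold a score that the authors left at 1 for every peak, and only their positions were used. Versions of these programs and the peak calling settings were not stated in the labels, headers or methods.

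RNA counts were scaled by TMM, filtered with filterByExpr and tested with the quasi-likelihood test of edgeR 4.0.16 in R 4.3.3. ChIP tags were tested with the same test, with the total tags as library size and all peaks of at least 1 tag. In the shared histone table of the *Gps2* line, a peak entered the test of a mark where it overlapped a listed peak of that mark in at least 2 libraries. All p-values were adjusted by Benjamini-Hochberg over every feature of a table, at 0.05. Promoter peaks are the member peaks with most tags within 1000 bases of a start by the tables' own distances. *Insig2* has several starts, and its promoter peak is not at the same start in every comparison. Motifs were searched on both strands with Python 3.11.15. The edgeR fit was tried on simulated counts first, for the RNA and some of the ChIP comparisons.

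The members and the gene lists were chosen with earlier results of these data known, so list counts are descriptions. Named were all members, the 3 largest called changes of each list, the 5 genes most like the members, each promoter peak, and of other called member peaks the 3 with the smallest p. A gene of the sterol enzyme list is not reported here. Alternatives were DESeq2 1.42.0, other scalings and filters, a replicate block, removal of the length trend and leaving out each sample. In no comparison of 3 or more pairs did every same-numbered pair deviate together (r from 0.02 to 0.11 for RNA and from -0.27 to 0.34 for ChIP), so the numbers were not taken as pairs. RNA libraries held 13.2 M to 20.1 M counts and ChIP libraries 7.90 M to 46.1 M tags. Counting error is widest at peaks of a few tags, and its intervals assume independent tags.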

Additional observations from a re-analysis of the deposited data

Results flagged for a closer look

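*Sqle* in the first *Gps2* LKO liver stood apart from the other 3, with 2023 scaled counts against 1855 to 1879.9, and its gap to the nearest liver was 0.849 of the range of the group. *Srebf2* in the fourth WT liver stood apart in the same way, with 792 scaled counts against 917 to 933 and a gap of 0.885 of the range. Chance alone flags about 1 in 20 groups of this kind. Without the first LKO liver *Sqle* had a log2 change of -0.21 (edgeR adjusted p = 0.0188).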

How the results depend on the processing

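Of the values recomputed, which were the members, *Gps2*, the named genes of the 5 pathway lists, and 16 called ChIP peaks, none reversed its direction. Among the promoter peaks of the members, called or not, TMM scaling changed the sign at 5 of 7 for GPS2 in *Ncor* LKO, 4 of 5 each for GPS2 and PPARα in *Pparα* KO, 3 of 8 for PPARα in *Gps2* LKO, and 1 each for NCOR in *Pparα* KO and PPARα in *Ncor* LKO. Leaving out 1 sample changed it at up to 5 of 8, for PPARα in *Ncor* LKO without WT sample 3. Among the RNA values, *Hmgcs1*, *Lss*, *Fdps*, *Srebf2* and *Insig1* kept their calls in all 13 alternatives. *Idi1* lost its call in 12 of them (edgeR or DESeq2 adjusted p from 0.0495 to 0.145 over all 13), *Sqle* in 3, without WT sample 1 (0.0753), WT sample 4 (0.0545) or LKO sample 4 (0.0626), and *Insig2* in 1, without WT sample 3 (0.0569). The number of members called was 6 to 8.

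For the ChIP-seq counts of called member peaks, the share of all peaks called in the same setting stands in brackets. TMM scaling gave 2 of 49 for GPS2 in *Ncor* LKO (2.23%) and 0 of 77 for PPARα in *Gps2* LKO (0.973%). It gave 4 of 73 for PPARα in *Ncor* LKO (1.74%) and 2 of 42 for PPARα in *Pparα* KO (3.6%). For H3K27ac in *Gps2* LKO it gave 0 of 25 (0.811%). The 2 for GPS2 were 1 higher, at *Fdps*, and 1 lower, at *Insig2*. For NCOR in *Pparα* KO the 1 call of 84 under this scaling (1.81%) was a higher one. DESeq2 gave 7 of 49 for GPS2 in *Ncor* LKO (14.1%) and 3 of 77 for PPARα in *Gps2* LKO (1.7%). In *Pparα* KO it gave 0 of 84 for NCOR (0.946%) and 7 of 42 for PPARα (17.3%). For H3K27ac in *Ncor* LKO it gave 6 of 39 (4.93%), with 4 higher and 2 lower. Filtering low peaks gave 3 of 24 for GPS2 in *Ncor* LKO (6.83%) and 7 of 7 for PPARα in *Pparα* KO (97.8%). Taking the 3 WT libraries of PPARα in the *Gps2* line as separate samples gave 28 of 77 (36.9%). Testing all peaks of the shared histone table gave 1 of 44 for H3K4me3 (0.0374%). A further count kept only member peaks within 10000 bases of a start, with all peaks at any distance in brackets. In *Pparα* KO it left 0 of 34 for NCOR (2.64%) and 3 of 17 for PPARα (27.6%). In *Gps2* LKO it left 8 of 36 for PPARα (21.7%), 1 of 10 for H3K27ac (1.42%) and 1 of 8 for H3K4me3 (0.916%). For H3K27ac in *Ncor* LKO it left 1 of 16 (3.12%).

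The labels number the samples, and a replicate block on that pairing gave 10 calls of 49 for GPS2 in *Ncor* LKO (18.7% of all peaks). In *Pparα* KO it gave 0 of 84 for NCOR (1.71%) and 0 of 42 for PPARα (0%). In *Gps2* LKO it gave 28 of 77 for PPARα with separate WT libraries (36.3%), and 6 of 25 for H3K27ac (5.23%), 3 higher and 3 lower. For RNA it gave 7 members. Each sample was also left out in turn, and the range over all peaks stands in brackets. In *Ncor* LKO this gave 0 to 29 of 49 for GPS2 (0% to 59.5%), 0 to 1 of 73 for PPARα (0.0058% to 0.969%) and 0 to 5 of 39 for H3K27ac (0.577% to 3.72%). It gave 0 to 3 of 84 for NCOR in *Pparα* KO (1.05% to 2.48%) and 12 to 19 of 77 for PPARα in *Gps2* LKO (9.91% to 24.2%). For RNA it gave 6 to 7 members. Where a group had 2 samples, leaving out 1 left a single sample, and no counts are listed here. The 4 *Ncor* LKO H3K27ac rises were all lost without WT sample 2 or 3, the 1 call without WT sample 3 being a lower one, and the NCOR call in *Pparα* KO was lost without WT sample 1 or 2 or KO sample 1 or 3. Fewer samples enter these fits, and the cause of the other changes was not tested. In the PPARα libraries of the *Pparα* line 0.581% to 2.44% of the tags lay in peaks, so values there rest on few tags.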
